A study of Mus musculus with 8 samples.

Results

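The genes described here are Mst1, its receptor gene Mst1r and 8 genes for proteins that the liver or the yolk sac secretes into the blood, Afp, Alb, Ttr, Apoa1, Apoa2, Apob, Rbp4 and Trf. They make up 10 of the 53465 genes in the table and were picked by symbol. Mst1 was picked for its strong rise in these samples, so its level is described without a test, and the secreted proteins were picked to ask whether liver bud or yolk-sac tissue was present beside the heart. The samples were ventricles of mouse hearts at embryonic day 9.5, whose polyadenylated RNA was sequenced in single reads. They comprised 4 samples labelled Nrg-1flox;Tie2-Cre, here KO, and 4 labelled WT. In KO the floxed gene for neuregulin-1, a growth factor that the endocardium sends to the myocardium, is deleted by a Cre under the endothelial driver Tie2. Tie2-Cre is known to recombine blood cells as well as endothelium, and the labels give no Cre or flox allele for WT. The labels do not say whether a sample was 1 embryo or a pool, so the p-values measure only the spread between these samples.

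Mst1 encodes macrophage-stimulating protein, a plasma protein of the hepatocyte growth factor family that adult liver makes as an inactive single chain. A protease such as hepsin or matriptase cleaves it, and the cleaved form binds the receptor tyrosine kinase RON, which Mst1r encodes and which is best known from macrophages and epithelia. The other 8 genes encode carriers of the blood that hepatoblasts and the visceral endoderm of the yolk sac make in this period, for fatty acids, iron, lipids, retinol and thyroid hormone.

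Mst1 lies on chromosome 9 in GRCm38 at chr9:108080436-108085003 on the plus strand, and its exons cover 2262 bases. The 250 bases before its RefSeq start (GRCm38.p6) are shown because Mst1 was the member with higher counts in every KO sample than in any WT sample. They lie within the Rnf123 gene, which runs on the opposite strand, and hold no annotated exonic base. The same stretches before Afp and Alb, the classical genes of early liver, stand beside it for comparison. A promoter sequence was matched for 8 of the 10 members, while those of Ttr and Trf are not shown. Both strands were searched for AGATAA and TGATAA, the letters that GATA factors such as GATA1 of red cells prefer, and for CCNCNCCC, the letters of a CACC box as bound by Krüppel-like factors. Matches are in capitals, and overlapping CCNCNCCC matches run together.

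Mst1, chr9:108080186-108080435, plus strand: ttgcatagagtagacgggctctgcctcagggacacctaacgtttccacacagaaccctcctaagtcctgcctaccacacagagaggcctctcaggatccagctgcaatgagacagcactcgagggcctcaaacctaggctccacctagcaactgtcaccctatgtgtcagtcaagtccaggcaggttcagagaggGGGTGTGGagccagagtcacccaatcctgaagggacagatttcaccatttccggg
Afp, chr5:90490464-90490713, plus strand: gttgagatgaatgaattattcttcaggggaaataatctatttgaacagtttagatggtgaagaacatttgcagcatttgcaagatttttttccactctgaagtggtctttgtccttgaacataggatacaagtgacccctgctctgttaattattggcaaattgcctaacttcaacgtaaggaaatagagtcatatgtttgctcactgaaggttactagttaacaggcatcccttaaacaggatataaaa
Alb, chr5:90460620-90460869, plus strand: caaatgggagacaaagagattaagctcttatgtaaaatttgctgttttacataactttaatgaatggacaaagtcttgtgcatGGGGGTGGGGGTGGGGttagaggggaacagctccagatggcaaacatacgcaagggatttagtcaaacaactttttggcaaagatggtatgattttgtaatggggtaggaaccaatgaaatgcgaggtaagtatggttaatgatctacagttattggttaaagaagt

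The Mst1 stretch held 1 CCNCNCCC match, which began 55 bases before the start, and 0 matches to the other letters. Afp held 0 matches to any of the letters, and Alb held 4 overlapping CCNCNCCC matches. Of 32851 mouse promoter stretches of the same length, 45.9% held CCNCNCCC, 9.99% held AGATAA and 7.94% held TGATAA. A match describes the letters only, and no binding was measured.

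The libraries held between 11852506 and 14360427 expected counts. Levels are given in CPM, the counts of a gene relative to library size, scaled between libraries by the trimmed mean of M values (TMM). Nrg1 had 61, 59, 71 and 72 counts in KO samples 1 to 4 and 156, 131, 121 and 173 in WT samples 1 to 4, so the gene named in the labels was lower in each KO sample. Its log2 fold change was -1.07 (SE 0.14, adjusted p = 0.00268). Each adjusted p is that of the quasi-likelihood test in edgeR, corrected by Benjamini-Hochberg over all genes tested. The 9 cardiomyocyte markers, among them Myh7, Actc1 and Myh6, summed to between 32340 and 35950 CPM in KO and between 34080 and 36030 CPM in WT, as ventricle should have, and 0 of the 9 passed the test. Myh6 was lower in each KO sample than in any WT sample (-0.25, SE 0.0795, adjusted p = 0.0796), and 2 of the 9 were called higher without KO sample 1, while 1 was called lower without KO sample 2 and in DESeq2. The test covered 14451 genes after a filter on low counts. It called 1245 of them (8.62%) at a false discovery rate under 0.05, of which 739 (5.11%) were higher and 506 (3.5%) lower in KO.

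Mst1 was higher in all 4 KO samples than in any WT sample. Its expected counts were 145.83, 36, 95 and 97.92 in KO samples 1 to 4 and 15, 8, 8 and 16 in WT samples 1 to 4. KO sample 1 was the highest and KO sample 2 the lowest of its group, and the lowest KO sample still held more than the highest WT sample. As a level this was 7.47 ± 4.02 CPM in KO against 0.864 ± 0.291 CPM in WT (SD, n = 4 each), or 3.30 against 0.382 CPM per kb of exon. The log2 fold change was 3.09 (SE 0.465), which is 8.49-fold. Leaving out each sample in turn moved the log2 fold change between 2.73, without KO sample 1, and 3.38, without KO sample 2. Mst1 passed the low-count filter only through its KO samples, so a difference was fixed once it was kept.

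**Figure D1:**
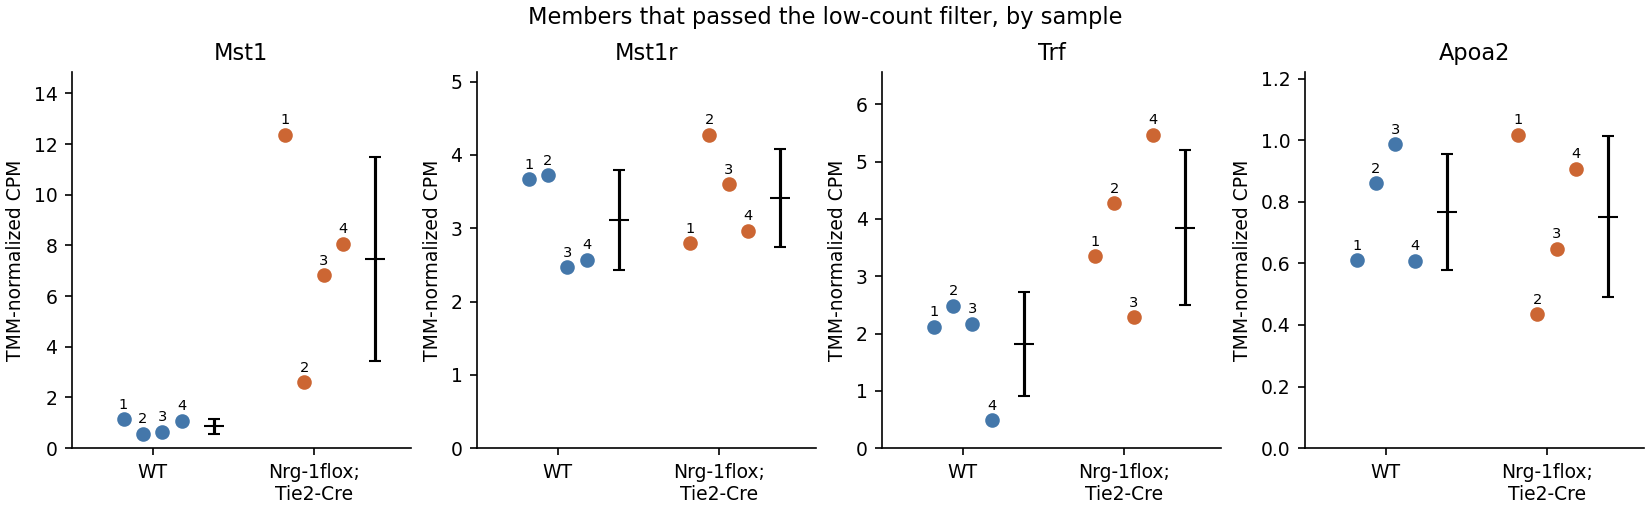
TMM-normalized CPM of the 4 members that passed the low-count filter, with 1 point per sample numbered by replicate, the mean as a short bar and the SD as the error bar (n = 4 per group). Mst1, picked for its rise, is the one panel in which the groups do not overlap. KO is at 2.61 to 12.4 CPM there and WT at 0.573 to 1.15 CPM.

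Mst1r, the gene for the receptor, did not follow its ligand gene. It had 33, 59, 50 and 36 counts in KO samples 1 to 4 and 48, 52, 30 and 38 in WT samples 1 to 4. The ranges overlapped, and KO sample 1, which had the most Mst1, had the fewest Mst1r counts of its group. The level was 3.41 ± 0.67 CPM in KO and 3.11 ± 0.682 CPM in WT (SD, n = 4 each). The log2 fold change was 0.14 (SE 0.215, adjusted p = 0.738). In CPM per kb of exon, Mst1r stood at 0.681 in KO and 0.62 in WT, so that Mst1 lay below its receptor gene in WT and above it in KO.

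The genes that process the ligand or belong to the same growth factor system were described from a list of 10, of which 4 could be tested and 0 were called, beside 8.62% of all genes. Their median log2 fold change was 0.23, where the median of all genes tested was -0.0014. Hpn, which encodes the activating protease hepsin, had 20 to 28 counts in KO and 15 to 25 in WT (log2 fold change 0.34, SE 0.199, adjusted p = 0.328). St14, which encodes matriptase, had 6 to 15 counts in KO and 9 to 32 in WT (-0.71, SE 0.461, adjusted p = 0.374). Spint2, which encodes an inhibitor of such proteases, gave 0.18 (SE 0.201, adjusted p = 0.634). Met, the receptor gene of hepatocyte growth factor and a relative of Mst1r, gave 0.29 (SE 0.248, adjusted p = 0.516). The gene of the ligand of Met, Hgf, held 3 to 8 counts in every sample and was not tested, and F11 was at 0 in all 8.

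The 8 secreted proteins were low in these ventricles, and those that could be tested were not called. Of the members besides Mst1, 3 passed the filter, Mst1r, Trf and Apoa2, and 0 of these 3 were called (adjusted p from 0.148 to 0.961), beside 8.62% of all genes. The other 6, Afp, Alb, Ttr, Apoa1, Apob and Rbp4, had too few counts. The level at which 3 counts stand, a limit from counting error alone, was 0.203 to 0.254 CPM.

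Afp encodes alpha-fetoprotein, the main plasma protein of fetal liver and yolk sac. It had 63, 32, 2 and 0 counts in KO samples 1 to 4 and 1, 4, 4 and 2 in WT samples 1 to 4. KO samples 1 and 2 stood above every other library, while KO samples 3 and 4 were inside or under the WT range. A fit without the filter gave Afp a log2 fold change of 3.18 (SE 0.969, adjusted p = 0.0832). KO sample 1 held the most of both genes, at 63 Afp and 146 Mst1 counts. KO sample 2 held 32 Afp and 36 Mst1 counts, and KO sample 4 held 0 Afp and 98 Mst1 counts. Without KO samples 1 and 2, an alternative chosen after seeing the data and given as a description, the log2 fold change of Mst1 was 3.09 (SE 0.269). KO samples 1 and 2 were the highest and the lowest of KO for Mst1, so leaving out both had to narrow its spread. The part of liver or yolk-sac tissue in the level of Mst1 was not tested.

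Alb encodes serum albumin, the carrier of fatty acids. It had 4 counts in KO sample 1, 2 in WT sample 3 and 0 in the other 6 samples. Ttr encodes transthyretin, a carrier of thyroid hormone and of retinol-binding protein, and had 5, 0, 6 and 5 counts in KO samples 1 to 4 and 3, 6, 6 and 4 in WT samples 1 to 4. Apart from KO sample 2 the Ttr counts were alike in both groups. Rbp4 encodes the plasma retinol carrier, and had 18, 7, 11 and 4 counts in KO and 8, 1, 8 and 8 in WT. KO sample 1 was highest and WT sample 2 lowest, with overlap between the groups.

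The 3 apolipoprotein genes among the members, whose products build the lipid particles of plasma, did not separate the groups. Apoa2 had 12, 6, 9 and 11 counts in KO samples 1 to 4 and 8, 12, 12 and 9 in WT samples 1 to 4. Each group spanned nearly the same range, and the log2 fold change was -0.04 (SE 0.336, adjusted p = 0.961). Leaving out a sample turned its sign in 4 of 8 cases. Apoa1, the main protein of high-density lipoprotein, had 5, 3, 3 and 1 counts in KO and 4, 2, 0 and 2 in WT. Apob, the scaffold of low-density lipoprotein, had 1, 1, 1 and 0 in KO and 2, 1, 3 and 1 in WT, with no sample above 3 counts.

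Trf encodes transferrin, the iron carrier of plasma, and was the highest of the secreted proteins besides Mst1 in total counts. Its expected counts were 39.44, 59.01, 31.8 and 66.29 in KO samples 1 to 4 and 27.75, 34.7, 26.4 and 7.19 in WT samples 1 to 4. KO sample 3 lay below WT sample 2, and WT sample 4 stood apart below the rest. The level was 3.84 ± 1.35 CPM in KO and 1.82 ± 0.901 CPM in WT (SD, n = 4 each), with a log2 fold change of 1.08 (SE 0.424, adjusted p = 0.148). Trf shares 2108 of its 3320 exonic bases (63.5%) with Gm20425, a gene model on the same strand whose log2 fold change had the opposite sign (-0.47, SE 0.183, adjusted p = 0.148). The counts of both genes summed were 105, 114, 110 and 128 in KO and 135, 132, 87 and 121 in WT, which gave a log2 fold change of 0.02 (SE 0.147, adjusted p = 0.955). How reads were divided between the 2 models was not tested.

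**Figure D2:**
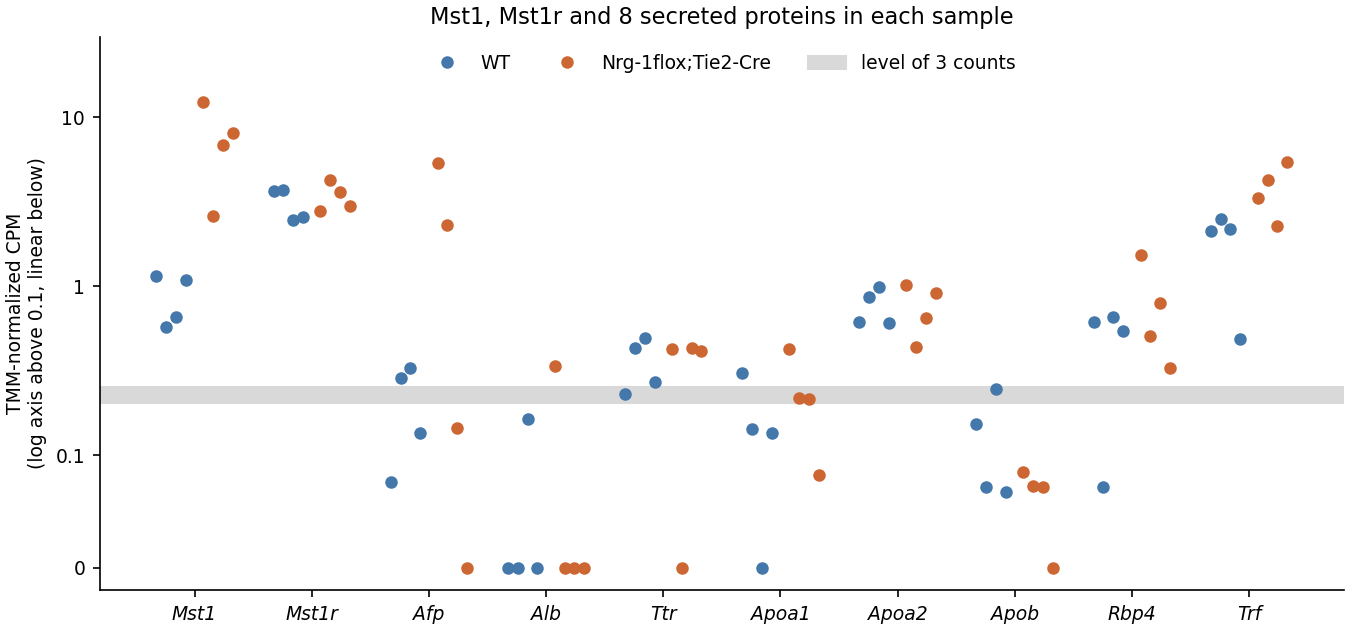
TMM-normalized CPM of all 10 members, 1 point per sample, on an axis that is logarithmic above 0.1 and linear below, with a grey band at the level of 3 counts. Mst1 separates the groups, Afp is above the WT range in 2 of 4 KO samples at 5.34 and 2.32 CPM, and Alb, Apoa1 and Apob lie near or below the band.

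The 7 secreted proteins without Mst1 and Trf summed to 108, 49, 32 and 21 counts in KO samples 1 to 4 and to 26, 26, 35 and 26 in WT samples 1 to 4. KO samples 1 and 2 were above all WT samples and KO samples 3 and 4 were not. The mean of the log2 summed CPM was higher in KO by 0.70 with all samples, and the difference was -0.06 without KO samples 1 and 2.

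Further plasma protein genes of the liver were at low levels too. Of 16 further plasma proteins of hepatoblasts, 0 could be tested, and their summed counts were 37, 18, 1 and 2 in KO samples 1 to 4 and 5, 5, 16 and 5 in WT samples 1 to 4. The highest KO libraries were those with Afp, and WT sample 3 stood above the other WT samples. Itih2, Fgb and Ambp, which encode an inhibitor chain of the plasma, a fibrinogen chain and a small carrier, had 13, 6 and 5 counts in KO sample 1, and Ahsg, the gene of fetuin-A, was at 0 in all samples.

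Among 10 transcription factors of the liver bud, 3 were tested and 1 was called higher, beside 5.11% of all genes. Cebpa, whose product drives hepatocyte and also myeloid and fat genes, had 11, 17, 17 and 18 counts in KO and 8, 7, 5 and 11 in WT. Its log2 fold change was 1.08 (SE 0.28, adjusted p = 0.0419), and the call held in the fit without KO sample 1 and was lost in the 7 other fits that left out a sample (adjusted p up to 0.12). Like Mst1, Cebpa passed the low-count filter only through its KO samples, so part of its difference was fixed once it was kept, and it was not called with no filter (adjusted p = 0.12). Hhex, which the early liver bud shares with endothelium, gave 0.31 (SE 0.304, adjusted p = 0.581), and Prox1 gave -0.11 (SE 0.103, adjusted p = 0.573). Without KO sample 1, Prox1 was called lower (-0.23, adjusted p = 0.0101). Prox1 made up most of the summed list, at a mean of 62.45 of 72.81 CPM in KO and 67.16 of 75.5 CPM in WT. Hnf4a, Foxa1, Foxa2, Foxa3 and Onecut1, which are defining regulators, held 5 counts or fewer in every sample.

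Of 9 genes of the yolk-sac visceral endoderm, 5 were tested and 0 were called, beside 8.62% of all genes, with a median log2 fold change of -0.24 against -0.0014 over all genes. Dab2 and Lrp2, an endocytic adaptor and its receptor, gave -0.24 (SE 0.0776, adjusted p = 0.0892) and 0.35 (SE 0.358, adjusted p = 0.589), and Rhox5 gave -0.63 (SE 0.217, adjusted p = 0.106). Dab2 was called lower without KO sample 2 (-0.30, adjusted p = 0.0302) and without KO samples 1 and 2. The list summed to 50.7 to 67.7 CPM in KO and 63.4 to 66.9 CPM in WT, and Spp2 was at 0 in all samples. Dab2 made up most of that sum, at a mean of 44.4 of 56.6 CPM in KO and 52.4 of 65.5 CPM in WT. S100g, Spink1 and Ihh held 5 counts or fewer in every sample. The other apolipoproteins and lipoprotein genes, 9 in all, gave 4 tested and 1 lower, beside 3.5% of all genes. Mttp, which loads lipid onto apolipoprotein B, had 188 to 228 counts in KO and 309 to 352 in WT, without overlap (-0.62, SE 0.0859, adjusted p = 0.00321). Apoe, the most abundant of them at 125.7 CPM in KO and 142.6 CPM in WT, gave -0.18 (SE 0.0643, adjusted p = 0.113).

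Tissues that border the liver bud and the heart were described from marker lists as well. Of 6 genes of the septum transversum and proepicardium, the mesenchyme around the liver bud and the source of the epicardium, all 6 were tested and 3 were called higher, beside 5.11% of all genes. Wt1 had 580, 777, 546 and 500 counts in KO and 420, 439, 391 and 442 in WT (0.57, SE 0.108, adjusted p = 0.0126). Hlx, a homeobox gene of that mesenchyme, had 69, 21, 21 and 16 counts in KO and 6, 4, 11 and 6 in WT (2.30, SE 0.597, adjusted p = 0.0421). Both were higher in each KO sample, and the third was Tbx18 (0.50, SE 0.12, adjusted p = 0.0315). Hlx, 1 of the 3 calls, passed the low-count filter only through its KO samples, so part of its difference was fixed once it was kept. Its log2 fold change was 1.51 without KO sample 1, the highest. The Hlx call held without KO sample 1 or 2 and was lost in the 6 other fits that left out a sample (adjusted p up to 0.122), that of Tbx18 was lost without any 1 of the 4 WT samples (adjusted p up to 0.0978), and that of Wt1 held in all 8 fits. The list gave 4 calls without KO sample 1 and 2 calls in limma-voom. Of 6 genes of endodermal epithelium, Krt19 alone could be tested, with 3407, 1680, 1275 and 1019 counts in KO and 779, 880, 1054 and 902 in WT (1.12, SE 0.36, adjusted p = 0.0872). Without KO sample 1, by far the highest, its log2 fold change was 0.56 and passed the test (adjusted p = 0.0291), as it did with all samples when no filter on low counts was set (1.11, adjusted p = 0.0297). The 5 untested genes had fewer summed counts in KO than in WT, at 21 against 59 for Epcam, 15 against 39 for Cdh1, 7 against 24 for Cldn6, 19 against 35 for Cldn7 and 0 against 18 for Shh, whose 18 counts were all in WT sample 3. WT sample 3 also held the most Epcam, at 33 counts, and the most Cldn6, at 16 counts. For Cdh1, WT samples 1 and 3 held 19 and 15 counts, and KO sample 2 held 14 of the 15 in KO. The part of such tissues in the level of Mst1 was not tested. In bulk samples, fewer cells of a type and less RNA per cell cannot be told apart.

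**Figure D3:**
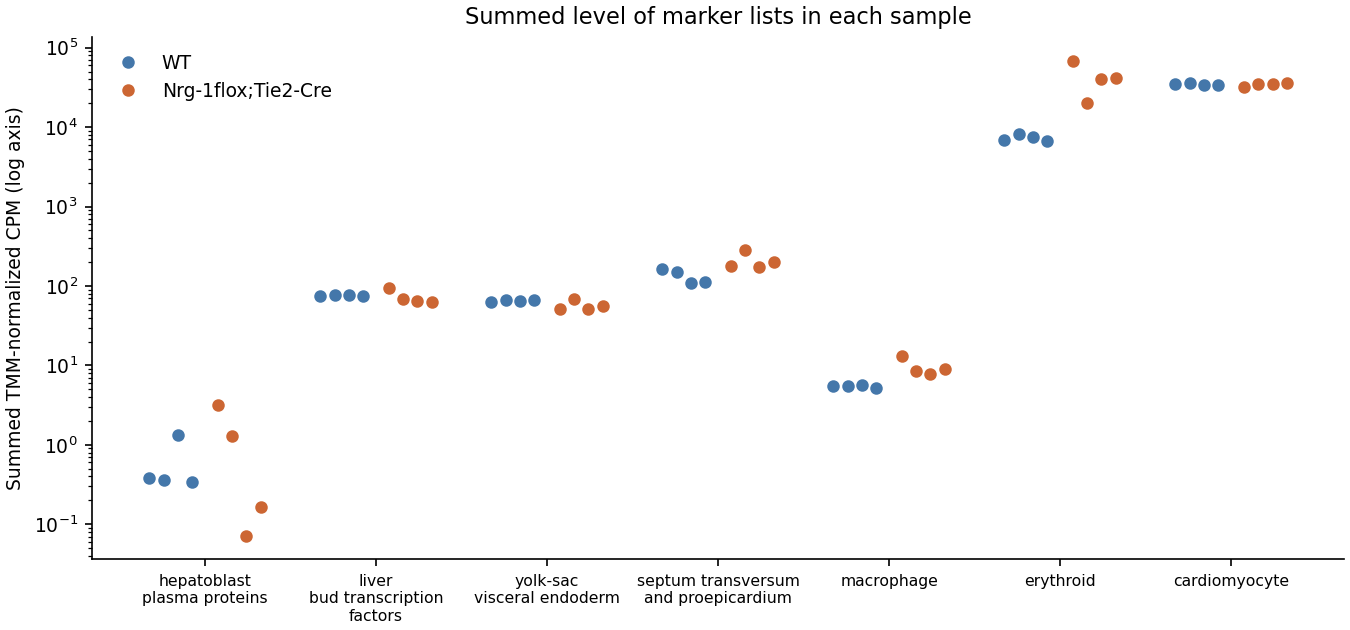
Summed TMM-normalized CPM of 7 marker lists on a log axis, 1 point per sample in the order of the replicate numbers. Prox1 makes up most of the liver bud list and Dab2 most of the visceral endoderm list. The hepatoblast list lies between 0.0719 and 3.13 CPM in KO and 0.338 and 1.31 CPM in WT, whereas the erythroid list is at 19950 CPM or more in KO and at 8173 CPM or less in WT.

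Red cell genes were higher in KO, as Mst1 was. All 12 genes of the erythroid list were called higher in KO (median log2 fold change 2.44, beside 5.11% of all genes called higher), and all 12 remained called without KO samples 1 and 2. Hbb-bt, an adult beta globin gene, lost its call in 5 of the 8 fits that left out a sample (adjusted p up to 0.12). Hemoglobin transcripts took 6.26%, 1.93%, 3.8% and 3.89% of the counts in KO samples 1 to 4 and 0.675%, 0.799%, 0.74% and 0.671% in WT samples 1 to 4. The order of the KO samples was that of Mst1, with sample 1 highest and sample 2 lowest. In WT the orders differed, with sample 2 highest for hemoglobin and lowest for the Mst1 level. The part of red cells in the level of Mst1 was not tested.

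The 5 erythroid genes that are not hemoglobins, Alas2, Slc4a1, Epb42, Gata1 and Klf1, encode membrane proteins, a heme enzyme and regulators of red cells. Their summed level was 1984, 728.7, 1431 and 1469 CPM in KO samples 1 to 4 and 244.6, 303.0, 273.6 and 229 CPM in WT samples 1 to 4. The ratio of the group means was 5.34 for these genes and 8.64 for Mst1. Per 1000 counts of the 5 genes, Mst1 had 6.23, 3.58, 4.78 and 5.5 counts in KO and 4.68, 1.89, 2.4 and 4.72 in WT. These ratios overlapped between the groups, at 5.02 ± 1.13 in KO and 3.42 ± 1.49 in WT (SD, n = 4 each). Among WT samples, sample 2 had the highest erythroid level and the lowest Mst1 level, at Mst1 counts of 8 to 16 where counting error is large. The ratio of Mst1 to hemoglobin counts and that to Gata1 counts overlapped between the groups as well.

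**Figure D4:**
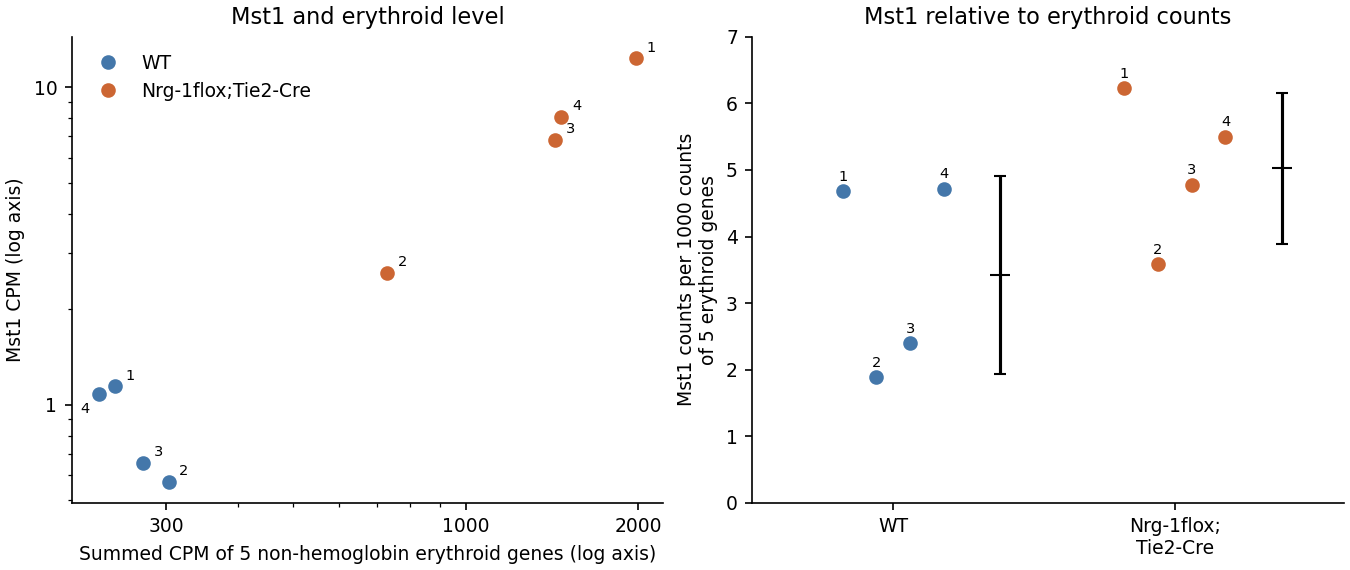
Left, Mst1 CPM against the summed CPM of 5 erythroid genes that are not hemoglobins, both on log axes, with points numbered by replicate. Right, Mst1 counts per 1000 counts of these genes, with mean and SD (n = 4 per group), where the KO range of 3.58 to 6.23 overlaps the WT range of 1.89 to 4.72.

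The genes most like Mst1 over the 8 samples were found by the root mean square difference of centred log2 CPM, a description with no test, among 14450 other genes. The 5 nearest were Rhag at 0.358, Flt3l at 0.388, Hba-a2 at 0.391, Hba-x at 0.402 and Hemgn at 0.405. Rhag encodes the Rh-associated glycoprotein of the red cell membrane, Hba-a2 and Hba-x encode adult and embryonic alpha-like globins, and Hemgn encodes a nuclear protein of erythroid cells. Flt3l encodes the ligand of the receptor FLT3 of early blood progenitors, and had 108, 46, 81 and 99 counts in KO and 19, 13, 13 and 28 in WT. Alas2 ranked at 16, Slc4a1 at 23 and Gata1 at 24, whereas Trf ranked at 1064, Apoa2 at 5840 and Mst1r at 7510. Since Mst1 was chosen for its rise, genes near it had to be higher in KO.

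Receptors for the member proteins gave 8 tested genes, of which 2 were called higher, beside 5.11% of all genes. Both bind transferrin. Tfr2, the transferrin receptor of erythroid cells and liver, had 166, 100, 184 and 154 counts in KO and 27, 43, 26 and 24 in WT (2.40, SE 0.257, adjusted p = 0.00161). Tfrc, the receptor by which red cell precursors take up iron, had 6074 to 7449 counts in KO and 4021 to 4354 in WT (0.75, SE 0.106, adjusted p = 0.00332). Neither receptor gene overlapped between the groups, which adds no support beyond their calls. Stra6, a receptor for the retinol carrier, gave -0.20 (SE 0.297, adjusted p = 0.723), and Scarb1, the receptor of high-density lipoprotein, gave 0.20 (SE 0.0633, adjusted p = 0.0818). Scarb1 was called higher without KO sample 2 (0.255, adjusted p = 0.0263), without KO samples 1 and 2 and in DESeq2 (adjusted p = 0.036), which brings the list to 3 calls.

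Of 5 macrophage genes, kept because the Mst1 receptor is known from these cells, 2 were tested and 1 was called higher, beside 5.11% of all genes. Csf1r, the receptor of the macrophage growth factor, had 87, 64, 73 and 67 counts in KO and 33, 41, 34 and 37 in WT (1.08, SE 0.18, adjusted p = 0.00657). Mrc1, a mannose receptor, gave 0.11 (SE 0.215, adjusted p = 0.795). Adgre1, the gene of F4/80, had 1 to 5 counts in KO and 0 in each WT sample. The 7 endocardial and endothelial genes had a median log2 fold change of -0.26 and held 1 lower call, beside 3.5% of all genes, or 2 in DESeq2, with no filter and without KO sample 1 or 2. Kdr gave -0.38 (SE 0.115, adjusted p = 0.0681) and Pecam1 -0.0071 (SE 0.127, adjusted p = 0.981). The call was Tek, the gene whose driver carries the Cre (-0.34, SE 0.0808, adjusted p = 0.031), a call that held without KO sample 1 or 2 and was lost in the 6 other fits that left out a sample (adjusted p up to 0.107).

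Mst1 and Mst1r lie on the same chromosome, with 160.1 kb from the end of Mst1r to the start of Mst1. From the gene beside Mst1r to the second gene beyond Mst1, a span chosen after its values were seen, 12 other genes were tested, of which 3 were called higher and 0 lower, beside 5.11% and 3.5% of all genes. Uba7, which encodes the activating enzyme for the ubiquitin-like ISG15, had 1159, 560, 854 and 864 counts in KO and 234, 290, 266 and 262 in WT (1.79, SE 0.229, adjusted p = 0.00244), and the gene model Gm20661, which overlaps its end, had 5 to 16 counts. Rnf123, a ubiquitin ligase gene, had 818, 759, 970 and 913 counts in KO and 572, 643, 532 and 587 in WT (0.64, SE 0.0957, adjusted p = 0.00406). Apeh, a peptidase gene that ends just beyond Mst1, had 1438, 1091, 1391 and 1273 counts in KO and 811, 967, 855 and 983 in WT (0.60, SE 0.116, adjusted p = 0.0131). The groups did not overlap for any of the 3, which adds no support beyond their calls. Apeh lost its call without WT sample 1 (adjusted p = 0.0539). The remaining 9 genes were not called, from Camkv at -1.03 (SE 0.287, adjusted p = 0.0535), whose groups did not overlap, to Inka1 at 0.27. Camkv was called lower in DESeq2 (adjusted p = 0.0488) and without WT sample 2 (-1.19, adjusted p = 0.0462).

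Rnf123 overlaps Mst1 on the opposite strand, and 195 of the 2262 exonic bases of Mst1 (8.62%) are also exonic in Rnf123. The setting for strand is not given in the sources used here, and where strand is not used, reads in those bases cannot be assigned to either gene. The other 2067 bases are free of Rnf123 exons. The part of such reads in the Mst1 counts was not tested.

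**Figure D5:**
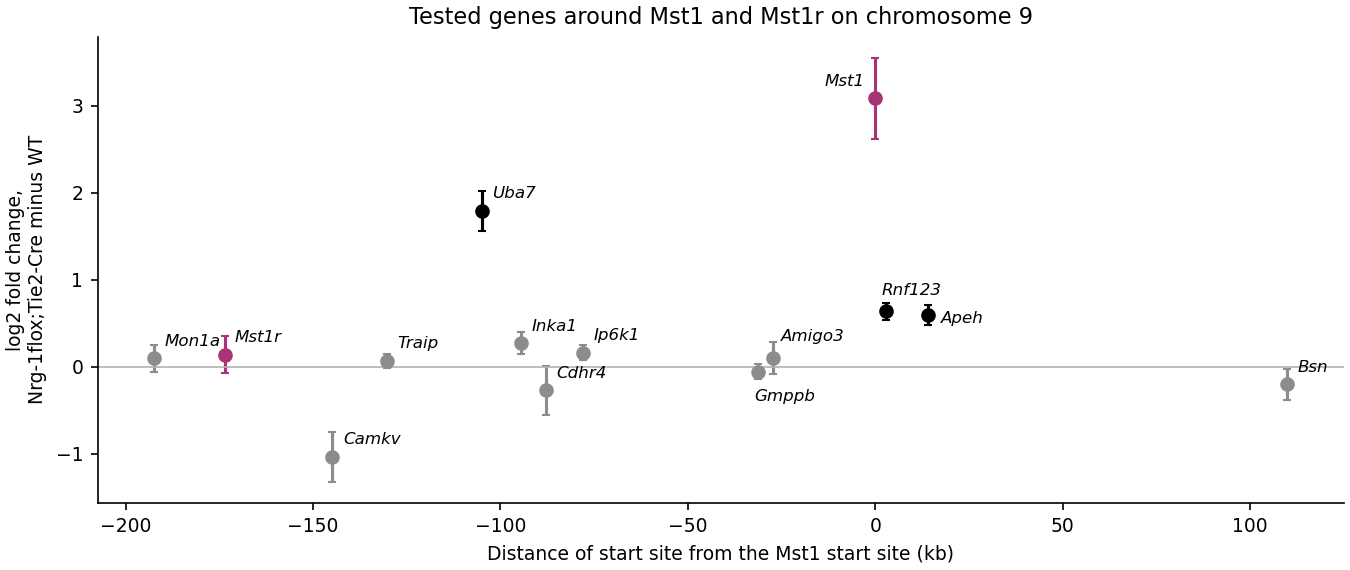
Log2 fold change, KO minus WT, of the 14 tested genes around Mst1 and Mst1r, plotted by the distance of their start sites from that of Mst1 in kb, with error bars of 1 SE. Black points are the 3 called neighbours, purple points are Mst1 at 3.09 and Mst1r at 0.14, and grey points were not called.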

How the data were processed

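Polyadenylated RNA of embryonic day 9.5 ventricles was read as 60-base single reads. Per the submitters' processing notes, the authors used cutadapt and RSEM 1.3.1 on GRCm38, and deposited expected counts per gene (Ensembl 91), estimates that divide reads matching several genes, with no scaling for depth or length. The aligner and strand setting are not given in the sources used here. Counts were rounded and tested with edgeR 4.0.16 in R 4.3.3: TMM, filterByExpr by genotype (minimum count 10), the quasi-likelihood test and Benjamini-Hochberg adjustment over 14451 genes at 0.05. DESeq2 1.42.0 and limma 3.58.1 were alternatives. Scripts were tested on simulated data. Exonic bases came from GENCODE on GRCm38, promoters from RefSeq (GRCm38.p6). With 3 counts or fewer, counting error alone hides a difference. No pairing of samples is given.

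The members and lists were chosen with earlier results of these data known. Named genes were the 10 members, up to 3 most abundant and 2 largest called changes in a list, Nrg1, neighbours of Mst1 and Mst1r, and the 5 genes most like Mst1. Other list genes and the 3 promoter motifs were picked after values and sequences were seen. A few genes of the lists are not reported here.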

Additional observations from a re-analysis of the deposited data

Results flagged for a closer look

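Among 30 groups of 4 samples, 7 had a sample far from the other 3 by Dixon's ratio of the gap to the range, a ratio at which chance flags about 1 in 20 groups of continuous values. That rate does not hold for counts near 0, where a group with 1 sample above 0 is always picked out. In KO these were Alb in sample 1 (ratio 1.0, 4 counts against 0), Ttr in sample 2 (0.975, 0 counts) and Apob in sample 4 (0.874, 0 counts against 1). In WT they were Alb in sample 3 (1.0, 2 counts against 0), Rbp4 in sample 2 (0.879, 1 count against 8), Trf in sample 4 (0.896, 7.19 counts) and the summed plasma proteins of hepatoblasts in sample 3 (0.91, 16 counts against 5). Apart from Trf and the hepatoblast sum, each rests on 8 counts or fewer.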

How the results depend on the processing

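The log2 fold change of Mst1 lay between 2.73 and 3.38 when samples were left out in turn and between 2.87 and 3.11 in the other planned fits, but a filter of 10 counts in every sample removed Mst1, Trf and Apoa2. The calls over all genes numbered 1245, of which 739 were higher and 506 lower in KO. They ranged from 509 without WT sample 1 to 2523 without KO sample 1 (335 to 1368 higher, 174 to 1155 lower) when samples were left out in turn, and came to 2932 (1630 higher, 1302 lower) without KO samples 1 and 2. The cause was not tested. The summed levels, as KO minus WT differences of the mean log2 CPM, ranged over the samples left out from 0.218 to 1.02 for the 7 secreted proteins, -0.995 to 0.82 for the plasma proteins of hepatoblasts (-0.08 with all samples, -2.19 without KO samples 1 and 2, where the KO sums are 1 and 2 counts), -0.31 to -0.171 for visceral endoderm, 2.14 to 2.74 for all erythroid genes and 2.14 to 2.62 for those without hemoglobins. With replicate number as a block, 616 genes were called (398 higher, 218 lower), Mst1 stood at 3.02, and Cebpa, Hlx and Tek lost their calls. Over all genes tested, samples sharing a number did not deviate together (mean correlation -0.0164, from -0.0911 to 0.0187), which cannot exclude a pairing. For Mst1 the CPM ranked the samples in the same order by number in both groups. Its SE was 0.254 with the block and 0.465 without it. Uncalled genes turned in sign. Leaving out samples in turn gave -0.213 to 0.166 for Apoa2 (above 0 without KO sample 2 or 3 or WT sample 2 or 3), -0.106 to 0.47 for Hhex (below 0 without KO sample 1), -0.0863 to 0.537 for Lrp2 (below 0 without KO sample 2), 0.0874 to 0.445 for Met and 0.0306 to 0.251 for Mrc1, and leaving out KO samples 1 and 2 together gave 0.0212 for Apoa2, -0.285 for Hhex, -0.158 for Met and -0.00233 for Mrc1. At these depths, the 6 untested members cannot show any but large differences.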
